A study of Mus musculus with 6 samples.

Results

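The nuclear genes for the subunits of respiratory complexes I, II, III and V were followed in mouse lung tumors after tamoxifen or corn oil. They were chosen by name: every gene on the array whose symbol marks it as a subunit of NADH dehydrogenase (Ndufa, Ndufb, Ndufc, Ndufs and Ndufv genes), succinate dehydrogenase (Sdh genes), the cytochrome bc1 complex (Uqcr genes) or ATP synthase (Atp5 genes). This gave 64 genes of the 36870 gene names on the array: 36 of complex I, 4 of complex II, 8 of complex III and 16 of complex V. All 64 were among the 20475 genes tested, and each was well above background in both channels of all 6 arrays. The name rule takes in Ndufa4, which is now assigned to complex IV, and Atp5s, a factor rather than a core subunit. It leaves out subunits under other names, among them Ndufab1 and Cyc1, which are given separately.

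All samples came from C57BL/6J mice with the genotype Ror1f/f; CAG-CreER; SPC-hEGFRdel746-750. They carry a floxed Ror1 gene (a Wnt5a-binding receptor), a Cre recombinase that tamoxifen activates under the broadly active CAG promoter, and mutant human EGFR expressed from the surfactant protein C (SPC) promoter, which marks alveolar type 2 cells. The oil group carries the same alleles and received corn oil, and either agent was given from 16 to 20 weeks of age, when lung tumor was taken; the study asks what conditional loss of Ror1 does in these tumors. Each group had 3 samples. Tamoxifen and oil samples with the same number were co-hybridised, once in each dye orientation, which gave 6 arrays; such a set of samples is called a couple. The labels do not say whether a sample is 1 animal or a pool, or that samples of a group came from separate animals, so p-values measure only the spread between these samples.

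The respiratory chain lies in the inner mitochondrial membrane. Complex I takes electrons from NADH and complex II takes them from succinate, as a step of the tricarboxylic acid cycle; both pass them to ubiquinone, and complex III passes them on to cytochrome c. Complexes I and III pump protons as they do so, and complex V, the ATP synthase, lets the protons return and makes ATP. Most subunits are encoded in the nucleus and a few core ones in mitochondrial DNA; complex II is wholly nuclear.

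The targeted gene, Ror1, read 9.35, 9.30 and 9.17 (log2 signal) in tamoxifen samples 1, 2 and 3 and 8.76, 8.86 and 8.99 in the oil samples, so every tamoxifen sample was above every oil sample. Couples 1, 2 and 3 gave log2 ratios of 0.58, 0.44 and 0.18 for tamoxifen over oil (on average 0.40 ± 0.21, SD, n = 3 couples; limma adjusted p = 0.69), against the direction that its deletion would give. The labels do not name the floxed exon, so whether this probe reads the deleted part is not known, and the samples labelled tamoxifen are named by that label throughout. Of 5 sex-linked genes tested, 3 were above 0 and 2 below 0 in couple 1. Their log2 ratios there ran from 3.71 for Eif2s3y to -2.13 for Xist, and reached up to 0.79 in couples 2 and 3. Only 1 of the 5 was above background in all readings. All 6 arrays were on 1 slide, and between 53.9% and 60.6% of probes were above background per array and channel.

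Subunit genes of the chain often carry sites for nuclear respiratory factor 1 (NRF1) near the start of the gene, and the promoters of 5 subunit genes that hold such a motif are shown for that reason. The windows below are the 150 bases before the start of the gene in RefSeq (build GRCm38.p6), written in the direction of transcription; all 5 genes lie on the minus strand. Capitals mark each match, on either strand, to the NRF1 motif searched for (GCGCA, any base, GCGC).

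Sdha, chr13:74350241-74350390: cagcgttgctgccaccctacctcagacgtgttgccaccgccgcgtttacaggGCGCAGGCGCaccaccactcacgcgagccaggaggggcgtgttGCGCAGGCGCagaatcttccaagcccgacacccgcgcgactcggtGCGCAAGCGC
Sdhd, chr9:50603850-50603999: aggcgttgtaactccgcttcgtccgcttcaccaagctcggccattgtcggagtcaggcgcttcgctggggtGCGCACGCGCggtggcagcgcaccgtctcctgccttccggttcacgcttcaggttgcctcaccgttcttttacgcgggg
Ndufs6, chr13:73328483-73328632: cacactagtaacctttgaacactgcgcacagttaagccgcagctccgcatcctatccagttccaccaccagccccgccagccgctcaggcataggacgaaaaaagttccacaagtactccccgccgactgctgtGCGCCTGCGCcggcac
Atp5h, chr11:115419920-115420069: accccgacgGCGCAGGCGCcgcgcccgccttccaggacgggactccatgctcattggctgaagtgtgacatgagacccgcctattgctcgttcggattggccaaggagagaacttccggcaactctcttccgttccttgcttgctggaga
Atp5g2, chr15:102671048-102671197: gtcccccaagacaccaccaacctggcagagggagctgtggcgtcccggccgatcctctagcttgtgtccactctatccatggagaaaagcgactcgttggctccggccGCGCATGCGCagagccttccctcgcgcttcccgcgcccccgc

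Over the 3 couples no subunit gene passed the test of tamoxifen against oil. By limma with Benjamini-Hochberg adjustment over all genes, 0 of 64 had an adjusted p under 0.05 (the smallest was 0.69), and 0 had an unadjusted p under 0.05; of all genes tested, 0% and 7.01% did, the latter as 3% higher and 4.01% lower. Within couples the genes did stand on one side: in couple 2 tamoxifen was above oil for 50 of 64 (all genes: 49.8%), and in couple 3 for 9 of 64 (all genes: 48.9%). In couple 1 it was above oil for 39 of 64 (all genes: 48.5%). Both at once, above in couple 2 and below in couple 3, held for 46 of the 64, or 71.9%, against 25% of all genes tested. Under the other scalings described at the end, this held for 37 to 53 of the 64. The 64 genes were bright, with a median signal at percentile 94.2 of all genes tested. A comparison with genes of like signal was not made.

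The median log2 ratio of tamoxifen over oil across the 64 genes was 0.05 in couple 1, 0.19 in couple 2 and -0.14 in couple 3, and the median of the means over couples was 0.03, with 38 of 64 means above 0 (all genes: 48.8%). For all genes tested the medians of the couples were -0.0078, -0.0010 and -0.0050. The shifts were small: the mean of no subunit gene reached 1.5-fold (all genes: 1.59%), and in single couples 0, 0 and 1 of 64 did (all genes: 6.38%, 4.29% and 5.02%), the last being Atp5f1 in couple 3. In these bulk samples fewer cells of a type and less RNA per cell cannot be told apart.

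**Figure D1:**
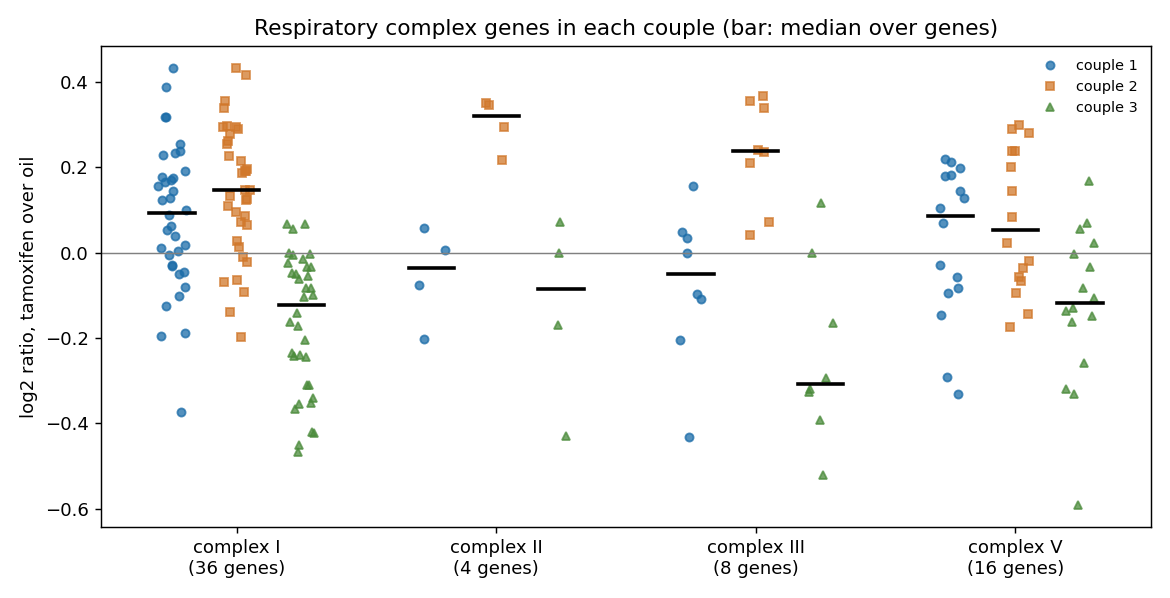
Log2 ratio of tamoxifen over oil (vertical axis) for each gene of complexes I, II, III and V in couples 1, 2 and 3; each point is a gene and the bar is the median over the genes. In couple 2 all 4 genes of complex II and all 8 of complex III lie above 0, and in couple 3 only 3 of 36 genes of complex I do.

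The exchange of dyes gives each couple a second reading. In couple 2, 46 of 64 genes were above 0 on both arrays (all genes: 35.9%), and in couple 3, 41 of 64 were below 0 on both (all genes: 36.3%). In couple 1, 27 were above 0 and 16 below 0 on both arrays (all genes: 35.4% and 37.4%). Across the 64 genes the ratios of the dye orientations correlated at Pearson r values of 0.57 (couple 1), 0.52 (couple 2) and 0.58 (couple 3). Compared between couples, r was 0.07 (1 and 2), 0.02 (1 and 3) and -0.12 (2 and 3). Orientations share both RNA samples and couples share none, and genes are not independent replicates, so these values are descriptions.

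The levels by sample, as the normalized signal of each channel, show where the couples part. Relative to each gene's own mean over the 6 samples, the median gene stood at 0.04, 0.04 and -0.05 in tamoxifen samples 1, 2 and 3. In oil samples 1, 2 and 3 it stood at -0.03, -0.12 and 0.10. Oil sample 2 had 9 of 64 genes above their own mean and oil sample 3 had 53 of 64, while the tamoxifen samples had 42, 38 and 22. The extremes on both sides were thus oil samples, and the tamoxifen samples lay between them.

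**Figure D2:**
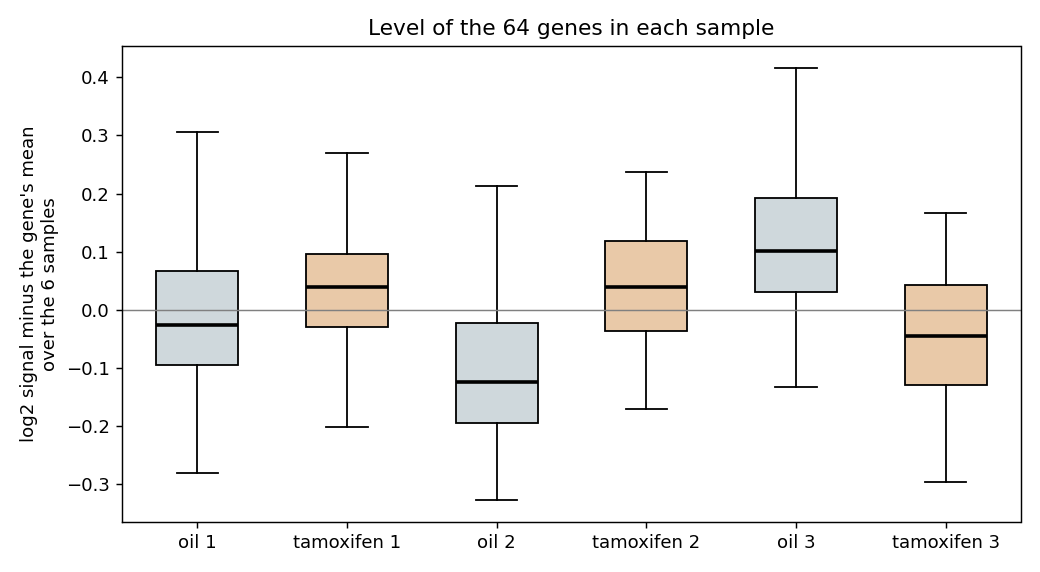
Log2 signal of the 64 genes in each of the 6 samples, minus each gene's mean over the samples; boxes hold the middle of the genes, the line is the median and whiskers reach the lowest and highest gene. The lowest median is that of oil sample 2 (-0.12) and the highest that of oil sample 3 (0.10).

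Complex I had a median mean log2 ratio of 0.04, with 22 of 36 genes above 0, and 0.09, 0.15 and -0.12 in couples 1, 2 and 3. Of its 7 nuclear core genes, which hold the NADH site and the iron-sulfur clusters, 6 were above 0 and the median was 0.08; of the 29 accessory genes 16 were above 0 with a median of 0.01. None differed by the limma test with Benjamini-Hochberg adjustment.

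Ndufv1 encodes the subunit that binds NADH. Its log2 signal was 13.16, 13.00 and 13.09 in tamoxifen samples 1, 2 and 3 and 12.90, 12.86 and 13.23 in the oil samples. The groups overlapped, as oil sample 3 was the highest of the 6, and the mean log2 ratio was 0.09 ± 0.20 (SD, n = 3 couples; limma adjusted p = 0.87).

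Ndufs1, the largest iron-sulfur subunit of the arm that takes up electrons, read 12.07, 12.30 and 12.15 with tamoxifen and 12.06, 12.00 and 12.35 with oil. The highest and the lowest sample were both oil, and the mean log2 ratio was 0.03 ± 0.25 (SD, n = 3 couples; limma adjusted p = 0.96).

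Ndufs7 and Ndufs8 carry the last iron-sulfur clusters before ubiquinone, and their means had opposite signs. Ndufs7 read 13.01, 13.00 and 13.34 with tamoxifen and 13.21, 13.20 and 13.27 with oil, a log2 ratio of -0.11 ± 0.15 (SD, n = 3 couples; limma adjusted p = 0.80). Ndufs8 read 13.19, 13.08 and 13.29 with tamoxifen and 12.96, 12.93 and 13.29 with oil, a log2 ratio of 0.13 ± 0.12 (SD, n = 3 couples; limma adjusted p = 0.77). Ndufs7 was the lowest of the core genes and Ndufs8 the highest, and in each the groups of samples overlapped.

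Among accessory genes the highest mean was that of Ndufb8, a subunit of the membrane arm whose protein is often used to gauge assembled complex I; its probe lies at chr19:44624744-44624803 (mm9). Ndufb8 read 13.86, 13.65 and 13.77 with tamoxifen and 13.47, 13.45 and 13.70 with oil, so that tamoxifen sample 2 lay below oil sample 3. The ratio was above 0 in all 3 couples (0.39, 0.20 and 0.07), and they averaged 0.22 ± 0.16 (SD, n = 3 couples; limma adjusted p = 0.69, unadjusted 0.079). Here the dyes differed: with tamoxifen in Cy5 the ratios were 0.26, -0.01 and -0.16, and with oil in Cy5 they were 0.52, 0.40 and 0.29.

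The lowest was Ndufa3, another accessory subunit, with its probe at chr7:3571695-3571754 (mm9). Ndufa3 read 13.71, 13.95 and 13.68 with tamoxifen and 14.09, 13.94 and 14.03 with oil. Tamoxifen samples 1 and 3 were the lowest of the 6, tamoxifen sample 2 lay just above oil sample 2, and the mean log2 ratio was -0.24 ± 0.22 (SD, n = 3 couples; limma adjusted p = 0.69).

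Ndufa12, an accessory subunit of the arm that faces the matrix, was below 0 on all 6 arrays (chr10:93683562-93683621, mm9). Its log2 signal was 13.43, 13.48 and 13.65 in the tamoxifen samples and 13.62, 13.55 and 13.67 in the oil samples. Tamoxifen sample 3 lay above oil samples 1 and 2, so the groups overlapped, and the mean was -0.09 ± 0.08 (SD, n = 3 couples; limma adjusted p = 0.80). RefSeq lists a pseudogene of Ndufa12, and whether the probe reads it was not tested.

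All 4 genes of complex II stood above 0 in couple 2, with a median of 0.32, and between -0.43 and 0.07 in couple 3. The flavoprotein Sdha, which oxidises succinate, read 12.42, 12.61 and 12.46 with tamoxifen and 12.41, 12.27 and 12.63 with oil. Oil sample 2 was the lowest and oil sample 3 the highest, and the log2 ratio was 0.06 ± 0.26 (SD, n = 3 couples; limma adjusted p = 0.92).

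Sdhb, the iron-sulfur subunit, read 13.26, 13.61 and 13.42 with tamoxifen and 13.46, 13.32 and 13.42 with oil. Both extremes were tamoxifen samples, and the log2 ratio was 0.03 ± 0.25 (SD, n = 3 couples; limma adjusted p = 0.96). The catalytic genes Sdha and Sdhb thus shared the direction of couple 2 (0.35 and 0.29) but in couple 1 read 0.0064 and -0.20.

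Sdhc and Sdhd anchor the enzyme in the membrane. Sdhc, the lowest of the complex (chr1:173059539-173059598, mm9), read 11.38, 11.35 and 11.28 with tamoxifen and 11.32, 11.14 and 11.71 with oil, a log2 ratio of -0.05 ± 0.34 (SD, n = 3 couples; limma adjusted p = 0.95). Sdhd, the highest (chr9:50404630-50404689, mm9), read 12.80, 12.91 and 12.81 with tamoxifen and 12.87, 12.56 and 12.74 with oil, a log2 ratio of 0.11 ± 0.22 (SD, n = 3 couples; limma adjusted p = 0.82). In both genes the tamoxifen samples spanned less than the oil samples, and oil sample 2 was the lowest of the 6.

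Complex III had the medians farthest apart between couples: all 8 genes were above 0 in couple 2 (median 0.24) and 1 of 8 in couple 3 (median -0.31), with -0.05 in couple 1. The median mean log2 ratio was -0.01. The core proteins Uqcrc1 and Uqcrc2, which form the matrix-facing base of the complex, were its highest and lowest genes.

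Uqcrc1 (chr9:108851624-108851683, mm9) read 12.68, 12.60 and 12.66 with tamoxifen and 12.65, 12.36 and 12.55 with oil. It was above 0 in all 3 couples, although oil sample 1 lay above tamoxifen sample 2, and the mean was 0.13 ± 0.10 (SD, n = 3 couples; limma adjusted p = 0.75). Uqcrc2 (chr7:127802599-127802658, mm9) read 12.84, 12.99 and 12.73 with tamoxifen and 13.28, 12.92 and 13.06 with oil, a mean of -0.23 ± 0.27 (SD, n = 3 couples; limma adjusted p = 0.72). Tamoxifen samples 1 and 3 were the lowest of the 6 for Uqcrc2.

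Uqcrfs1, the Rieske iron-sulfur protein that takes electrons from ubiquinol, followed the couples closely: 12.75, 12.95 and 12.58 with tamoxifen and 12.75, 12.61 and 12.97 with oil. Its ratios were -0.0021, 0.34 and -0.39, averaging -0.02 ± 0.37 (SD, n = 3 couples; limma adjusted p = 0.99). The 5 small subunits had the same signs, each above 0 in couple 2 and below 0 in couple 3; Uqcr10 had the widest range, from 0.35 to -0.52.

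In complex V 9 of 16 genes were above 0 in couple 2 and the median was 0.05; the medians of couples 1 and 3 were 0.09 and -0.12. The difference between complexes was not tested. Its parts differed: of the 5 genes of the catalytic F1 head, 1 was above 0 in couple 2 (Atp5a1) and 3 in couple 3, while all 3 of the small membrane subunits (Atp5j2, Atp5k and Atp5l) were above 0 in couple 2 and below 0 in couple 3.

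Atp5a1, the alpha subunit of the head, read 15.51, 15.49 and 15.18 with tamoxifen and 15.32, 15.20 and 15.51 with oil, a log2 ratio of 0.05 ± 0.33 (SD, n = 3 couples; limma adjusted p = 0.95). Atp5b, the beta subunit that holds the catalytic sites, read 15.25, 15.41 and 15.48 with tamoxifen and 15.59, 15.43 and 15.42 with oil, a log2 ratio of -0.10 ± 0.20 (SD, n = 3 couples; limma adjusted p = 0.84). By their brightest probes these partners of the same ring gave opposite signs in all 3 couples (0.18, 0.29 and -0.32 against -0.33, -0.02 and 0.05). Some of these values were near 0: in couple 2 the arrays gave Atp5b 0.08 with tamoxifen in Cy5 and -0.12 with oil in Cy5. In couple 3 the other Atp5b probes read -0.02 and 0.11. Atp5c1, the central stalk that turns inside the head, read 14.75, 14.74 and 14.85 with tamoxifen and 14.57, 14.80 and 14.83 with oil, a log2 ratio of 0.05 ± 0.12 (SD, n = 3 couples; limma adjusted p = 0.91).

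The tamoxifen and oil samples did not overlap for 2 of the 64 genes, Atp5o and Atp5g2 (3.12%, against 12.3% of all genes tested). Atp5o, part of the outer stalk that holds the head still, lay at chr16:91925472-91925531 (mm9) and read 14.57, 14.50 and 14.61 with tamoxifen and 14.50, 14.42 and 14.44 with oil. At more digits the lowest tamoxifen sample stood just above the highest oil sample. The mean log2 ratio was 0.11 ± 0.05 (SD, n = 3 couples; limma adjusted p = 0.78), above 0 on all 6 arrays.

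Atp5g2, 1 of the 3 genes for the proton-carrying c ring, lay at chr15:102493359-102493418 (mm9). It read 15.21, 15.14 and 15.15 with tamoxifen and 15.30, 15.28 and 15.30 with oil, and every tamoxifen sample was below every oil sample. The mean was -0.13 ± 0.03 (SD, n = 3 couples; limma adjusted p = 0.73), below 0 on all 6 arrays. The other c ring genes, Atp5g1 and Atp5g3, which encode the same mature protein, gave 0.04 and 0.03, and the sign of each turned in 3 of 16 alternatives.

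Atp5f1 (Atp5pb in RefSeq), the b subunit of the outer stalk, was the lowest of the 64 genes, with its probe at chr3:105745871-105745930 (mm9). It read 14.17, 14.35 and 14.01 with tamoxifen and 14.19, 14.52 and 14.60 with oil. Tamoxifen sample 3 was the lowest of the 6, but oil sample 1 lay below tamoxifen sample 2, and the mean was -0.26 ± 0.29 (SD, n = 3 couples; limma adjusted p = 0.70). RefSeq lists pseudogenes for 7 of the 64 genes: Ndufa12, Ndufs5, Uqcrh, Atp5c1, Atp5f1, Atp5k and Atp5l.

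**Figure D3:**
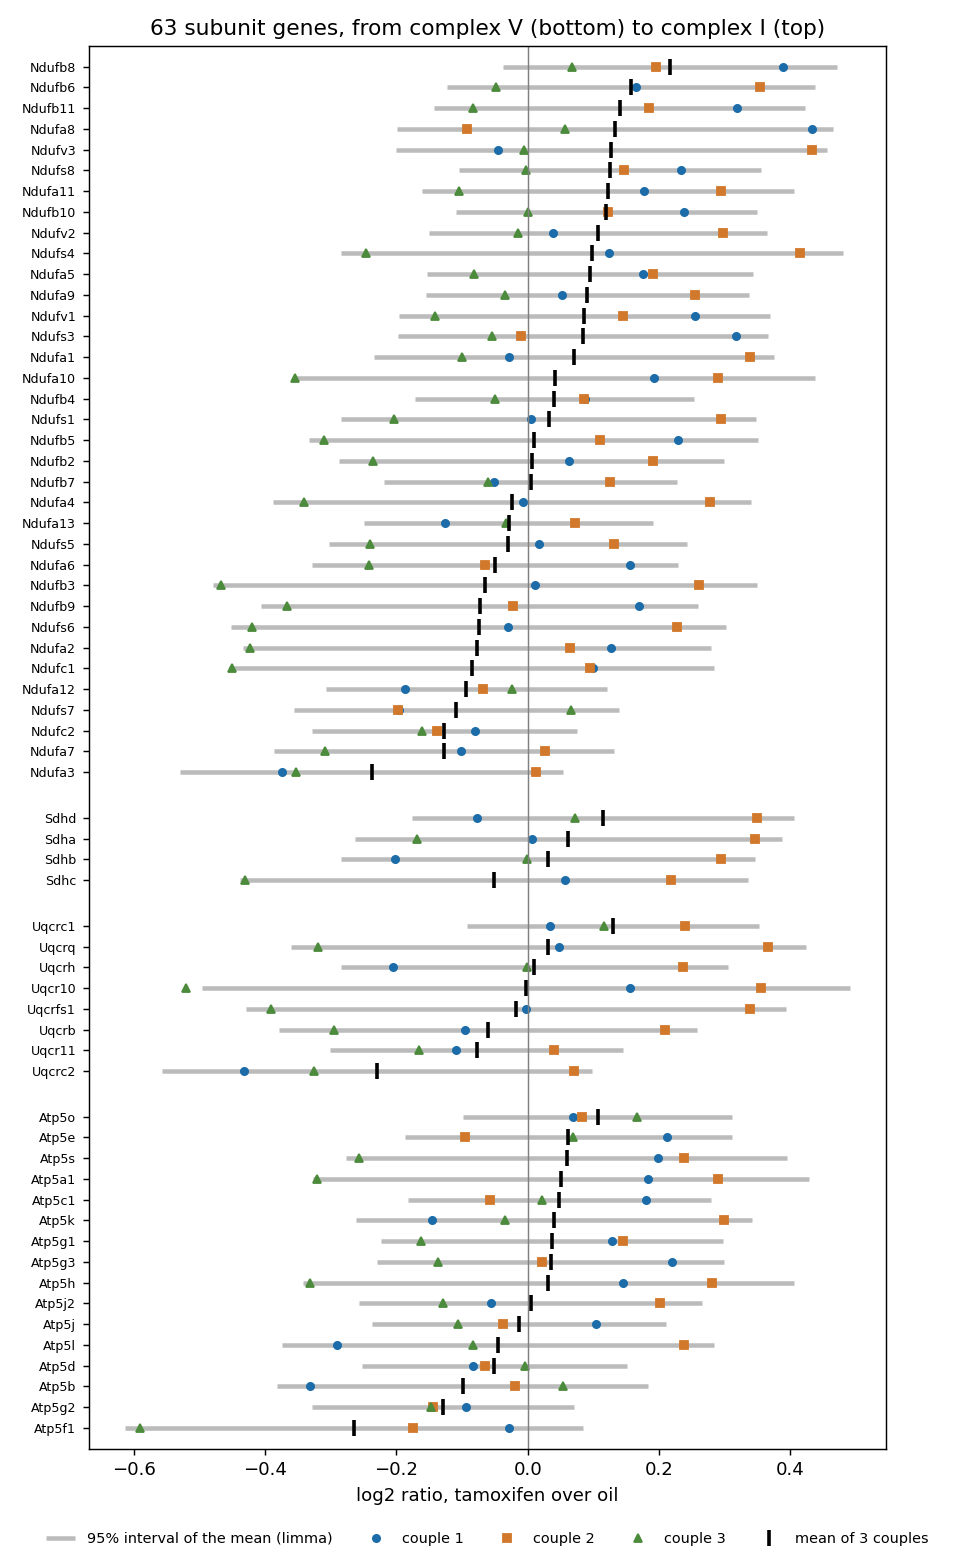
Log2 ratio of tamoxifen over oil (horizontal axis) of 63 of the 64 genes, ordered within complexes; coloured points are the 3 couples, black ticks their mean and grey lines the 95% interval of the mean from limma. Every interval covers 0, from -0.61 for Atp5f1 at the lower end to 0.49 for Uqcr10 at the upper.

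The signs were compared over couples and over arrays. A total of 8 of 64 subunit genes had the same sign in all 3 couples (12.5%, against 30.2%), and 3 had it on all 6 arrays (4.69%, against 13.3%), which were Ndufa12, Atp5g2 and Atp5o. The 95% intervals of the means, which were not adjusted for the number of genes, reached from -0.61 to 0.49 over the 64 genes. The smallest difference that 3 couples can detect was not tested. The median SE was 0.119 for a subunit gene and 0.0967 for all genes tested. This SE comes from each gene's own SD, whereas the intervals use the variance that limma moderates over genes.

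The ratios were also read by other probes of the same genes. Of 107 probes under the 64 names, 34 besides the brightest were above background throughout. Of these, 22 had a mean log2 signal of 10 or more, and 20 of the 22 lay within 0.15 of the brightest probe in all 3 couples; 4 of the 22 overlap it in sequence. Under that signal 1 of 12 probes did. Across the 22, the other probe correlated with the brightest with r of 0.82, 0.90 and 0.95 in couples 1, 2 and 3, which is a description, as probes of a gene share the RNA.

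Probes that cross an intron read spliced RNA. Of the 9 such probes, 2 are themselves the brightest of their gene. From the others, whose ratios can be set beside those of the brightest probe, 3 are shown as examples. Each has 60 bases and is printed as on the array, with the stretch it spans on mm9.

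Sdhb, chr4:140522514-140527081: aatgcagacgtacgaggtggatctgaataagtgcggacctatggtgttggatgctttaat
Ndufa10, chr1:94361039-94363996: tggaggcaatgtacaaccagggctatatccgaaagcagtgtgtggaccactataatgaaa
Atp5b, chr10:127521478-127522156: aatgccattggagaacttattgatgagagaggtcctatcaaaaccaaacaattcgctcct

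The intron-crossing Sdhb probe gave -0.26, 0.33 and 0.02 in couples 1, 2 and 3, beside -0.20, 0.29 and -0.0012 for the brightest. That of Ndufa10 gave 0.13, 0.27 and -0.36, beside 0.19, 0.29 and -0.35. That of Atp5b gave -0.35, -0.07 and 0.11, beside -0.33, -0.02 and 0.05. Each pair kept its order of couples. The exceptions among bright probes were found in Atp5g1 and Atp5a1. In Atp5g1 a second probe read -0.38, -0.09 and -0.02 against 0.13, 0.14 and -0.16 for the brightest. In Atp5a1 the other probe, which is also 1 of the 9 that cross an intron, read 0.02 in couple 1 against 0.18.

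**Figure D4:**
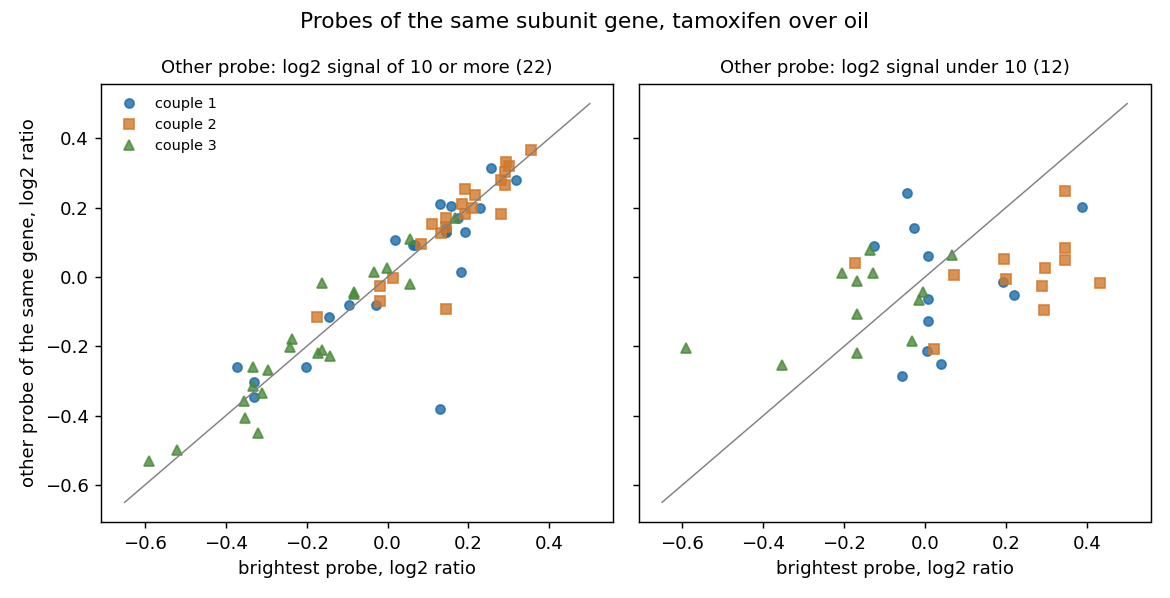
Log2 ratio of tamoxifen over oil of the brightest probe of a gene (horizontal axis) and of another probe of the same gene (vertical axis), for 22 probes with a mean log2 signal of 10 or more (left) and 12 dimmer ones (right); colours are the couples and the line marks equal values. Of the bright probes 20 of 22 lie within 0.15 of the line in all 3 couples, and of the dim ones 1 of 12.

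The promoters were searched for 5 motifs in the window from 250 bases before to 50 after the start, on both strands, in the 55 genes that RefSeq's table lists. The NRF1 motif was found in 16 of 55 (29.1%), against 5.19% of 27025 genes. The ETS motif CCGGAAG, bound by GABP, was in 13 (23.6%, against 9.93%), the YY1 motif (AA, any base, ATGGCGG and a last C) in 4 (7.27%, against 1.17%), and TCAAGGTCA of the estrogen-related receptors in 2 (3.64%, against 0.466%). CCAAT was in 23 (41.8%, against 41.1%). YY1's motif was in Ndufa9, Ndufs4, Ndufs6 and Ndufs7, and that of the estrogen-related receptors in Sdhd and Atp5g3. A match is a run of letters and not a bound site.

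Among the genes whose windows are printed above, Sdha holds 3 matches to the NRF1 motif and read 0.35 in couple 2 and -0.17 in couple 3. Sdhd read 0.35 and 0.07, the only one of the 5 above 0 in couple 3. Ndufs6, with its match in reverse orientation, read 0.23 and -0.42, and Atp5h read 0.28 and -0.33. Atp5g2, whose match reads alike on both strands, gave -0.14 and -0.15. The 16 genes with the motif had medians of 0.16 and -0.09 in couples 2 and 3, and the 39 without it 0.15 and -0.10.

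Genes around the chain were described from lists of known members, by limma on the same scale with Benjamini-Hochberg adjustment over all genes tested. In each of these lists 0 genes had an adjusted p under 0.05; at an unadjusted p under 0.05 there were 2 higher (of complex I assembly), 1 higher (Sucla2) and 1 lower (of the electron carriers), where all genes gave 3% higher and 4.01% lower. The 11 nuclear genes of complex IV had medians of -0.10, 0.20 and -0.24 in couples 1, 2 and 3, from Cox4i1 at -0.25 to Cox8a at 0.14 by mean. The tricarboxylic acid cycle (13 genes) gave 0.05, 0.15 and -0.11, with Sucla2 the highest by mean at 0.28. Electron carriers and nucleotide exchange (19 genes) gave -0.04, 0.10 and -0.13, from Etfb at -0.35 to Vdac2 at 0.20. These lists had the order of couples 2 and 3 that the 64 genes had.

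The assembly factors of complex I (14 genes) gave 0.09, 0.18 and -0.01, with Acad9 the lowest at -0.24 and Ndufaf7, a mitochondrial methyltransferase, the highest at 0.34 ± 0.11 (SD, n = 3 couples; limma adjusted p = 0.69). Those of complex II (4 genes) gave 0.10, 0.07 and -0.30, from Sdhaf1 at -0.19 to Sdhaf2, which helps attach the flavin to Sdha, at 0.16. Complex III factors with Cyc1, the cytochrome c1 subunit (6 genes), gave 0.13, -0.05 and -0.05, from Cyc1 at -0.15 to Uqcc1 at 0.19. The list labelled ATP synthase assembly and regulation (6 genes of that enzyme outside the name rule) gave 0.07, 0.17 and -0.09. It ran from Atpaf1 at 0.01 to 2010107E04Rik at 0.15, and roles within the list were not told apart. The acyl carrier subunit Ndufab1 gave -0.15 and the paralog Ndufa4l2 gave 0.05.

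Regulators of mitochondrial biogenesis (12 genes) gave medians of 0.03, -0.00047 and 0.01, with Polg, the mitochondrial DNA polymerase, the lowest at -0.22 and Esrra, an estrogen-related receptor, the highest at 0.23. The 64 genes' shift between couples 2 and 3 had no counterpart in the median of this list. Whether the lists differ from each other was not tested.

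**Figure D5:**
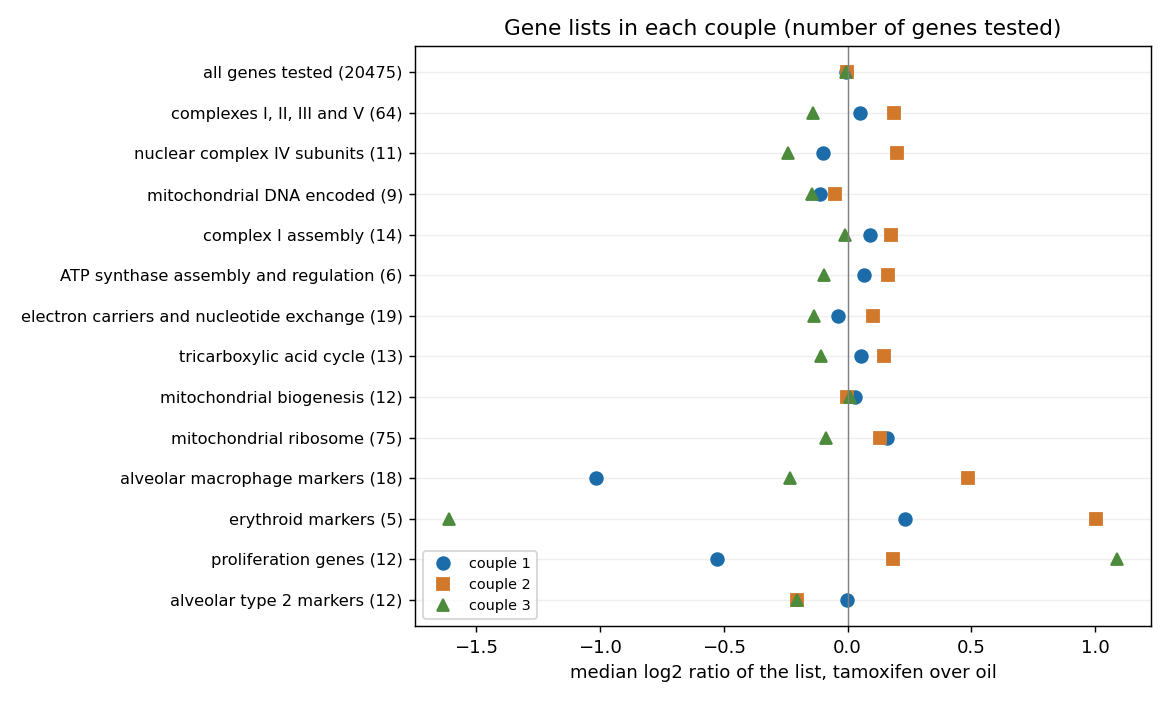
Median log2 ratio of tamoxifen over oil (horizontal axis) of gene lists in couples 1, 2 and 3, with the number of genes tested in brackets; all genes tested stand at the top. The mitochondrial lists drawn run from -0.24 to 0.20, while the erythroid list spans -1.61 to 1.0.

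Markers of other cells were read in the same couples. Over 5 of the 7 erythroid genes on the array the medians were 0.23, 1.0 and -1.61 in couples 1, 2 and 3, with Slc4a1 among those not well enough above background to be tested; the log2 of the summed signal ran from 13.63 to 14.99 in tamoxifen samples and from 13.41 to 15.50 in oil samples. Of 20 alveolar macrophage marker names 18 were on the array, and all 18 were tested. Their medians were -1.02, 0.49 and -0.23 (summed 16.41 to 18.23 and 17.18 to 17.85). Over 12 proliferation genes the medians were -0.53, 0.18 and 1.09 (summed 13.96 to 14.42 and 13.13 to 14.70). The 12 alveolar type 2 markers, the cell type the transgene promoter marks, were all tested and gave -0.00089, -0.21 and -0.21. Their summed ranges, 19.22 to 19.23 and 19.47 to 19.54, did not overlap (single genes, all tested: 12.3%). Such a sum is weighted to the brightest genes. In couples 1, 2 and 3, 6, 2 and 2 of the 12 were above 0 (all genes: 48.5%, 49.8% and 48.9%). By limma 4 of the 12 were lower at an unadjusted p under 0.05 (all genes: 4.01%). Of 11 heart muscle genes 8 were tested and all 8 had means below 0 (all genes: 10492 of 20475). Their medians were -0.15, -0.15 and -0.05 in couples 1, 2 and 3, and the lowest gene in couple 2 was at -2.54. Their summed log2 signal was 11.39 in oil sample 2 and 10.68 to 10.85 in the other samples. Myl3, Ryr2 and Pln were not tested. Other lists were one-sided too: means were below 0 for 17 of 18 alveolar macrophage, 5 of 5 erythroid and 6 of 6 club cell genes. They were above 0 for 7 of 7 endothelial, 5 of 5 T and NK cell and 11 of 12 proliferation genes. Less one-sided were alveolar type 2 (9 of 12 below 0), ciliated cell (4 of 6) and skeletal muscle genes (2 of 4). The part of these cells in the subunit genes' values was not tested.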

How the data were processed

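Total RNA (50 ng per sample) was labelled with Cy3 and Cy5 and read on 6 mouse arrays, per the labels. The deposited scanner output gives, per the file headers, spot intensity in both channels without normalization, and a log10 ratio with flags of 0 or 1, listed as other values per the file headers. The submitters' processing notes name Agilent Feature Extraction 12.0.3.1. The deposited table holds log2 ratios of Cy5 over Cy3: against that log10 ratio its slope was 3.32 or 3.33 on every array, so its scale and direction are known and no centring was added. Its column medians were, for couples 1, 2 and 3, 0.14, -0.14 and -0.06 where Cy5 labelled tamoxifen and 0.13, -0.15 and -0.0054 where it labelled oil. Further steps of the submitters are not given in the sources used here.

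From the intensities, limma 3.58.1 under R 4.3.3 applied normexp (offset 50), then loess per array, giving the 3671 control spots weight 0; between 89 and 132 outlier spots per array were left out and 0 were saturated. Arrays were turned to tamoxifen over oil and each couple's 2 arrays averaged, so 3 replicates were tested against 0, two-sided (lmFit, eBayes, Benjamini-Hochberg, threshold 0.05). The brightest probe stood for a gene, tested if, for tamoxifen or for oil, it was well above background on the arrays of 2 or more couples; 2 genes were dropped for a missing spot. Levels by sample are log2 channel signals after loess and Aquantile, both arrays averaged. The design is paired: a couple shares its arrays and the number in the titles. The scripts were tested on simulated data. Probe positions are on mm9, per the file headers, without exon annotation of that build; RefSeq tables (GRCm38.p6) gave symbols for all 64 genes. The genes, the lists and the rule for named genes (fixed catalytic members, the extremes of each complex and list, and those with 1 sign on all arrays) were chosen with earlier results of these data known; Values of 1 subunit gene and of 2 genes of other lists are not reported here singly. Eif2s3y and Xist were named after their values were seen. The number of arrays limits the precision; alternatives are given at the end.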

Additional observations from a re-analysis of the deposited data

How the results depend on the processing

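No subunit gene passed the threshold under any of the 16 alternatives run. Of all genes tested, 0 passed, but 56 did with the 6 arrays fitted with the couple as a random replicate block, 9 with a dye term added to that fit (added after seeing the data) and 1 with no replicate block and the channels apart. The medians of the 64 genes and of each complex moved by less than the spread between couples, but leaving out a couple turned the sign of the former: 0.03 became -0.01, -0.07 and 0.13 without couples 1, 2 and 3. Of the genes given by sample, the mean turned sign for 11. The sign also turned for Uqcr10 (in 7 alternatives), Atp5j and Ndufa4 (5 each), Ndufa10 (4), and Atp5g1, Atp5g3, Atp5h and Ndufs6 (3 each), among others. The cause was not tested. Leaving out 1 couple gave Atp5a1 -0.069 to 0.24, Atp5b -0.18 to 0.017, Atp5c1 -0.018 to 0.10, Ndufs1 -0.10 to 0.15, Sdha -0.081 to 0.18, Sdhb -0.10 to 0.15, Sdhc -0.19 to 0.14, Sdhd -0.0027 to 0.21 and Uqcrfs1 -0.20 to 0.17. With tamoxifen in Cy5 alone Ndufs1 was -0.098, Ndufs7 0.024, Ndufv1 -0.019, Sdhd -0.092 and Uqcrfs1 0.064. With oil in Cy5 alone Atp5a1 was -0.020, Atp5c1 -0.021, Sdha -0.019, Sdhb -0.13 and Sdhc 0.0084. Median centring gave Atp5b 0.011 and Uqcrfs1 0.044, the scanner software's ratio and the deposited table both gave Uqcrfs1 0.0084, and the mean over probes gave Ndufs1 -0.034. The order of couples 2 and 3 held under each of the 5 other scalings, with 50 to 59 genes above 0 in couple 2 and 8 to 19 in couple 3. Of these, the scanner software's ratio and the deposited table gave the same counts and nearly the same medians, so they are not separate checks. Median centring raised couple 1 to 57 of 64 above 0 and moved the median of all genes by up to 0.05.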

Other observations

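Mitochondrial DNA encodes further subunits of the chain, and the mitochondrial ribosome translates them. Mitochondrially encoded subunits of complexes I, III and V were looked up by name, and those of complex IV were not. The 9 genes found on the array all had means below 0 (all genes: 10492 of 20475). They ran from CYTB, the cytochrome b of complex III, at -0.18 ± 0.07 to ND4L at -0.04 ± 0.01 (SD, n = 3 couples). Their medians were -0.11, -0.05 and -0.14 in couples 1, 2 and 3. The dyes differed: with tamoxifen in Cy5 the medians were -0.24, -0.10 and -0.17. With oil in Cy5 the medians were -0.08, 0.03 and -0.03. None of the 9 genes passed limma's test (smallest adjusted p = 0.69, and 0 of 9 at an unadjusted p under 0.05). These genes are single copies on 1 molecule and share their transcripts.

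Of 75 mitochondrial ribosome genes, 52 had means above 0 (all genes: 48.8%), with medians of 0.16, 0.13 and -0.09 in the couples. The highest was Mrpl11 at 0.29 ± 0.07 and the lowest Mrpl46 at -0.28 ± 0.08 (SD, n = 3 couples; limma adjusted p = 0.69 for both), and each kept its sign in all 3 couples.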
